A study of Drosophila melanogaster with 4 samples.

Results

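Mitochondrial ribosomal proteins were followed through 70 probes, each for a different gene, out of 15744 probes on the arrays. A probe was taken when its only gene symbol, brought up to date through the gene identifier, began with mRpL or mRpS, the prefixes for the large and the small subunit. The gene table of assembly Release 6 lists 73 such genes, and mRpL34, mRpL53 and mRpS34 had no matching probe here. The 45 large-subunit and 25 small-subunit probes all had a value on every array, as did 13963 probes in all, so no member was lost to a filter.

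The study used an anti-GFP antibody to pull down polyadenylated RNA and compared larvae with GFP-B52 (GMR X GFP-B52) and control larvae with GFP carrying a nuclear localisation signal (GMR X GFP-NLS). B52 is a splicing factor of the SR family. GMR drives expression in the developing eye, whereas each extract was a pool of the front ends of 600 third-instar larvae, which also held tissue outside the driver's domain. Both groups carried the driver and a GFP fusion, and 2 replicates were each hybridised in both dye orientations, giving 4 two-colour arrays and n = 2. An array is named below by the dye of its B52 RNA, so the Cy5 array of a replicate carries B52 RNA in Cy5 and control RNA in Cy3, and the Cy3 array the reverse. The labels do not say whether the replicates came from separate larvae, so p-values measure only the spread between these samples. In such bulk extracts, fewer cells of a type and less RNA per cell cannot be told apart. None of the 4 arrays measured the RNA before precipitation. Association with the fusion, the level of an RNA in the extract and nonspecific carry-over therefore cannot be told apart either.

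Mitochondrial ribosomes translate the few messages encoded by the mitochondrial genome, which in animals are core subunits of the respiratory chain and of ATP synthase. Their RNA comes from the mitochondrial genome, but all of the proteins described here are encoded in the nucleus, made on cytosolic ribosomes and imported. Many descend from the proteins of the bacterial ribosome and keep their numbers, while others were added in the mitochondrial lineage.

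The deposited values are log ratios of both channels, whose log base and direction are not stated in the labels or the file, and each array was centred on its median. Values can be read in either of 2 ways. If a column holds a fixed ratio of the dyes, the Cy5 arrays have to be turned (multiplied by -1) before averaging, and what stays the same on all arrays as deposited is an effect of dye. If the columns already hold a fixed ratio of the precipitates, no turning is needed. B52 probe 13309, which was used earlier to choose the turning, lay at -0.45 and -0.51 on the Cy5 arrays of replicates 1 and 2 and at 0.41 and 0.50 on the Cy3 arrays. The other 4 probes for B52 did not change sign with the dye on both replicates. Their turned means were 0.13, 0.11 and 0.03 for probes 832, 2144 and 2736. Probe 4048 lay on the other side, at -0.33. As deposited, all probes for B52 had means below 0. These were -0.18, -0.17, -0.135 and -0.18 for probes 832, 2144, 2736 and 4048, and -0.01 for probe 13309. Turned values above 0 are called the B52-probe side after probe 13309 alone, without saying which precipitate was higher. Both readings are given for the members.

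As a group the members lay slightly on the B52-probe side when the arrays were turned and more clearly below 0 as deposited, and in neither reading did a single member pass the test over all probes. Turned, 47 of 70 members (67.1%) had a mean above 0, where 48.8% of all probes did, and their median was 0.025 log units against -0.003 for all probes. As deposited, 53 of 70 (75.7%) had a mean below 0, where 49.9% of all probes did, with a median of -0.058 against 0.001. By replicate, the turned median of the members was 0.011 in replicate 1 and 0.049 in replicate 2, and the deposited median -0.096 and -0.020.

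The turned side of the group changed in 1 of the fits with an array or a replicate left out. Without the Cy5 array of replicate 1, which leaves only the Cy3 array in that replicate, the turned median was -0.030 and 27 of 70 members lay above 0. Without both arrays of replicate 1 it was 0.049, with 48 of 70 above 0, and without replicate 2 it was 0.011, with 39 above 0. Without 1 of the other 3 arrays it lay between 0.0125 and 0.069, highest without the Cy3 array of replicate 1. A replicate that has lost an array no longer balances the dyes. The deposited median stayed below 0 whichever array was left out, between -0.086 and -0.048.

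The 4 arrays show where these medians came from. As deposited, the members had a median of -0.121 on the Cy5 array of replicate 1, where 51 of 70 lay below 0. On the Cy3 array of replicate 1 the median was -0.100, with 50 of 70 below 0. Replicate 2 gave -0.065 on the Cy5 array, again with 50 of 70 below 0, but 0.015 on the Cy3 array, where 33 were below 0. The members were thus shifted downward on 3 of the arrays and lay near the level of all probes on the fourth, since all probes had array medians between -0.005 and 0.001.

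**Figure D1:**
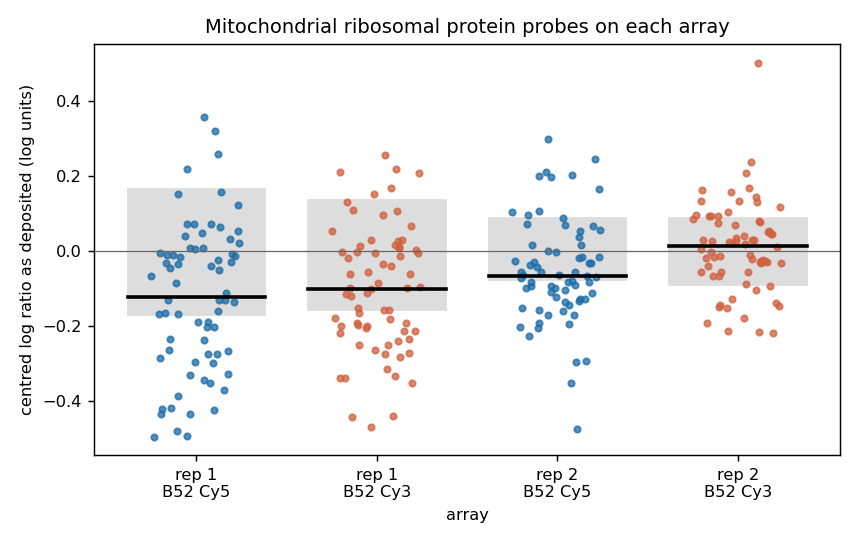
Centred log ratio as deposited (log units) of the 70 mitochondrial ribosomal protein probes on each of the 4 arrays; each point is a probe, the black line the members' median, and the grey box spans the quartiles of all 13963 probes. The members' medians lie at -0.121, -0.100 and -0.065 on the first 3 arrays and at 0.015 on the last.

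The replicates differed in how both dye orientations related to each other. In replicate 1, 21 of 70 members (30%) changed sign when the dyes were exchanged, close to the 27.7% of all probes. Those that kept their sign lay mostly below 0: 40 of 70 (57.1%) were below 0 in both orientations, where 36.6% of all probes were, and 9 (12.9%) were above 0 in both, where 35.4% were. In replicate 2, 51 of 70 (72.9%) had opposite signs in the orientations, where 57.5% of all probes did.

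The correlation across members showed the same contrast. It is given as a description over 70 probes that share their arrays. As deposited, the orientations correlated at a Pearson r of 0.636 (Spearman rho 0.631) in replicate 1 and at -0.644 (rho -0.51) in replicate 2. Over all probes r was 0.608 (rho 0.607) and -0.167 (rho -0.265). The members were thus close to all probes in replicate 1 and farther from 0 in replicate 2. Without mRpL49, the most distant point of replicate 2, the members' r there was -0.571 (rho -0.488). The turned replicate means of the members correlated at r = 0.604 (rho 0.548), and over all probes at 0.311 (rho 0.347). As deposited, r was 0.415 for the members and 0.27 for all probes.

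**Figure D2:**
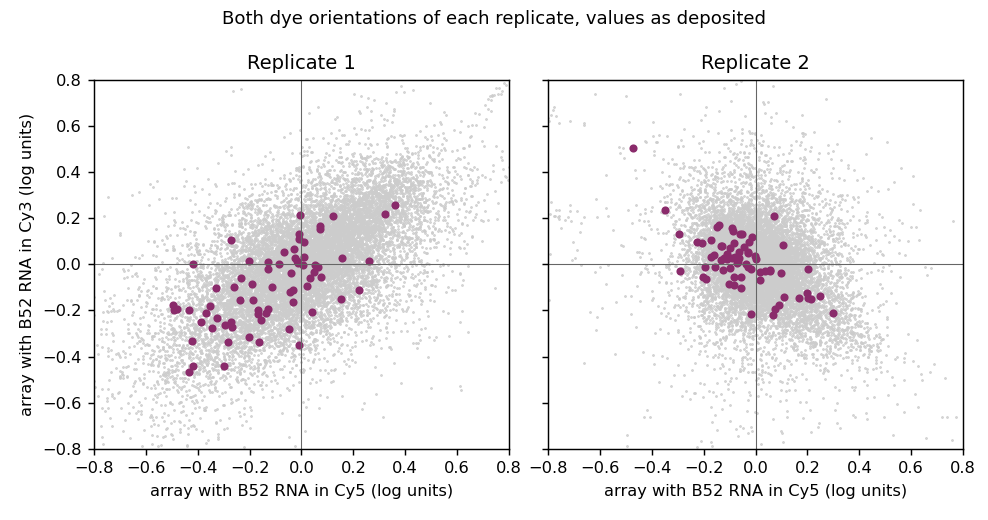
Values as deposited (log units) on the Cy5 array (horizontal) and the Cy3 array (vertical), for replicate 1 (left) and replicate 2 (right); purple points are the 70 members and grey points all probes, of which 159 and 315 lie outside the axes. The members follow the rising diagonal in replicate 1 (r = 0.636) and the falling one in replicate 2 (r = -0.644).

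In limma, fitted to the replicate means of all 13963 probes with turned arrays, 0 probes (0%) and 0 of 70 members reached an adjusted p under 0.05. The smallest adjusted p of a member was 0.292. At an unadjusted p under 0.05 the count was 10 of 70 members (14.3%), and that of all probes 1808 (12.9%), so the members' share was near that of all probes. Of these 10, 6 lay above 0 (8.57%, against 5.22% of all probes) and 4 below (5.71%, against 7.73%). As deposited, 92 probes (0.659%) passed, 34 above and 58 below 0, and 0 of 70 members, whose smallest adjusted p was 0.485; at an unadjusted p under 0.05 there were 3 of 70 (4.29%), where 9.94% of all probes were. The 95% interval of a member's turned mean reached a median of 0.125 log units to either side, which is wider than the means of most members: 54 of 70 lay within 0.1 of 0. As deposited the interval reached 0.209, and 40 lay within 0.1.

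The large subunit held the member farthest from 0 on the B52-probe side. mRpL49, a protein without a bacterial counterpart, gave turned values of 0.27 and 0.11 in replicate 1 and of 0.47 and 0.50 in replicate 2, with the Cy5 array first and the Cy3 array second, the order used for all members below. All 4 arrays lay on the same side, and replicate 2 was higher than replicate 1. Its mean was 0.34 ± 0.21 log units (SD, n = 2; 95% interval 0.12 to 0.56; adjusted p = 0.292 in limma), a ratio of 2.18 if the logs are decimal and of 1.26 if they are binary. The gene lies on X from 12907105 to 12907942 in Release 6, a position of the gene and not of the probe, and overlaps no other gene of the table.

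A set of large-subunit proteins with bacterial counterparts followed, with 1 arrangement of arrays in common. mRpL27, whose relative in Escherichia coli reaches toward the peptidyl transferase centre, had turned values of 0.35 and -0.18 in replicate 1 and of 0.35 and 0.24 in replicate 2 (mean 0.19 ± 0.15, SD, n = 2). mRpL24, related to a bacterial protein that starts the assembly of the large subunit, had 0.48 and -0.19, then 0.21 and 0.09 (mean 0.15 ± 0.005). mRpL19, which has a bacterial relative at the interface of the subunits, had 0.49 and -0.20, then 0.17 and 0.10 (mean 0.14 ± 0.01). In each of these the Cy3 array of replicate 1 lay on the opposite side from the other 3. The small SD of mRpL24 and mRpL19 between replicate means thus did not come from agreement between arrays.

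mRpL9, with turned values of 0.33 and -0.10, then 0.09 and 0.16, and the small-subunit gene mRpS14, with 0.43 and -0.20, then 0.15 and 0.16, had the same arrangement. Their means were 0.12 ± 0.01 and 0.14 ± 0.03 (SD, n = 2). mRpL18, related to the bacterial protein that binds the 5S ribosomal RNA, had 0.42 on the Cy5 array of replicate 1 and at most 0.064 on the other 3. In all, 28 of 70 members lay above 0 on exactly 3 turned arrays, where 26.3% of all probes did. For 21 of these 28 (30% of the members) the Cy3 array of replicate 1 was the exception. Of all probes, 12.8% had that arrangement. Without the Cy5 array of replicate 1, the means of mRpL24, mRpL19 and mRpS14 were -0.021, -0.030 and -0.021.

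On the opposite side, 2 members kept their side on every array by at least 0.1 log units. mRpS17, a small-subunit protein whose bacterial relative binds the ribosomal RNA of that subunit, had turned values of -0.22 and -0.11 in replicate 1 and of -0.30 and -0.21 in replicate 2. Its mean was -0.21 ± 0.06 (SD, n = 2; 95% interval -0.34 to -0.08; adjusted p = 0.292 in limma), a ratio of 1.62 for decimal and 1.16 for binary logs. mRpL3, related to a bacterial protein that takes part early in large-subunit assembly, had -0.15 and -0.15, then -0.20 and -0.15, and was the most even of the leading members (mean -0.16 ± 0.02; 95% interval -0.28 to -0.04; adjusted p = 0.3 in limma).

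By the same rule of at least 0.1 on all 4 turned arrays, mRpL49 was the only member on the B52-probe side (1.43%, against 0.824% of all probes), and mRpS17 and mRpL3 were 2.86% on the other, against 2.2%. mRpS17 also passed in limma when the 4 arrays were fitted with the replicate as a random block, at an adjusted p of 0.0439, in a fit that called 447 probes and estimated that same-numbered arrays correlated at -0.664. Its gene lies on 2R from 24173665 to 24174441, and mRpL3 on X from 15761248 to 15762663.

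The remaining members far from 0 on that side were less even. mRpL41, a protein added in the mitochondrial lineage, had turned values of -0.04 and -0.20, then -0.21 and -0.15 (mean -0.15 ± 0.04, SD, n = 2). mRpL36, related to a small zinc-binding protein of bacteria, had 0.01 and -0.35, then -0.07 and -0.22 (mean -0.16 ± 0.02), and mRpS33, which has no bacterial counterpart, had 0.14 and -0.21, then -0.25 and -0.14 (mean -0.12 ± 0.11). mRpL41 stayed below 0 on all arrays, whereas mRpL36 and mRpS33 each had 1 array above 0. By sign alone, 7 of 70 members (10%) lay on the B52-probe side on all 4 turned arrays, where 5.96% of all probes did, and 7 (10%) on the other side, where 8.04% did.

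As deposited, other genes led. Of the 12 members farthest from 0 in each reading, only mRpL24 and mRpL19 were among both. mRpL14, related to a bacterial protein at the subunit interface, lay at -0.43 and -0.47 in replicate 1 and at -0.11 and 0.02 in replicate 2 (mean -0.25 ± 0.29, SD, n = 2). mRpS18C, 1 of 3 small-subunit paralogs with mRpS18A and mRpS18B, lay at -0.42 and -0.33, then at -0.06 and -0.10 (mean -0.23 ± 0.21; 95% interval -0.45 to -0.004; adjusted p = 0.501 in limma). mRpL50, without a bacterial counterpart, lay at -0.42 and -0.44, then at 0.02 and -0.07 (mean -0.23 ± 0.29). In these genes the distance from 0 came mainly from replicate 1, in which both orientations lay below -0.3.

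The other leaders below 0 as deposited had means between -0.17 and -0.22: mRpL54 at -0.22 ± 0.21, mRpL21 at -0.20 ± 0.15, mRpL47 at -0.20 ± 0.17, mRpL11 at -0.18 ± 0.15, mRpS5 at -0.18 ± 0.13 and mRpL13 at -0.17 ± 0.20 (SD, n = 2). mRpL11 has a bacterial relative at the base of the stalk that binds elongation factors, and that of mRpS5 takes part in accurate decoding. Of the 3 paralogs of mRpS18, all lay below 0 on both arrays of replicate 1, between -0.16 and -0.42, and between -0.10 and 0.04 in replicate 2. Their turned means were between -0.02 and 0.02.

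mRpL37, a large-subunit protein added in the mitochondrial lineage, went the other way. It lay above 0 on all arrays as deposited, at 0.36 and 0.26 in replicate 1 and at 0.07 and 0.21 in replicate 2 (mean 0.22 ± 0.12, SD, n = 2; 95% interval 0.01 to 0.44; adjusted p = 0.485 in limma). No other member was above 0 on all 4 arrays as deposited, so the count was 1 of 70 (1.43%), where 11.4% of all probes were. Below 0 on all 4 were 13 members (18.6%), where 10.6% of all probes were. mRpS7, the highest of the small subunit as deposited, lay at 0.11 ± 0.08 and had 1 array below 0.

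**Figure D3:**
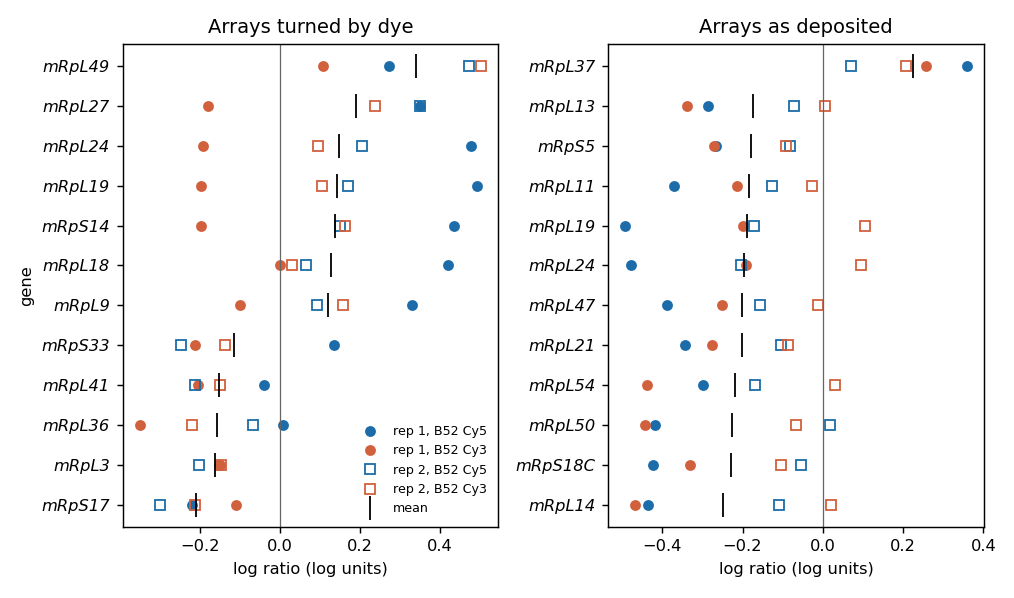
Log ratio (log units) of the 12 members farthest from 0 with arrays turned by dye (left) and as deposited (right); blue marks the Cy5 arrays and orange the Cy3 arrays, filled circles replicate 1, open squares replicate 2, and black bars the mean. On the left only mRpL49, mRpL41, mRpL3 and mRpS17 have all arrays on 1 side; on the right mRpL37, mRpL11, mRpL21, mRpL47, mRpS5 and mRpS18C do.

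The subunits were set side by side. Turned, the median was 0.025 for the large subunit (32 of 45 above 0) and 0.018 for the small one (15 of 25 above 0). As deposited the medians were -0.056 and -0.070, with 33 of 45 and 20 of 25 below 0. Turned means ran from -0.16 to 0.34 in the large subunit and from -0.21 to 0.14 in the small one. Deposited means ran from -0.25 to 0.22 and from -0.23 to 0.11. The ranges thus overlapped but were not the same, and no difference between subunits was tested.

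Split by number, 41 members bear numbers shared with bacterial ribosomal proteins (up to 36 in the large and 21 in the small subunit) and 29 higher ones, which were mostly given to proteins added in mitochondria, though mRpL47 and mRpS24 among them have bacterial relatives. Turned, the medians were 0.024 and 0.028. As deposited they were -0.114 and -0.034, with 32 of 41 and 21 of 29 below 0; this difference was not tested either. By chromosome arm, the turned medians lay between 0.011 on 3L (16 members) and 0.036 on 2R (10 members), and the deposited ones between -0.103 on 2L (12 members) and -0.037 on 2R.

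The member genes are short, and many overlap another gene. Their median length in the gene table, introns included, was 910 bases, against 2448 over all probes with a gene. In 40 of 70 members the gene overlapped another gene of the table, for 36 of them 1 that also had a probe. The share of such overlaps over all genes was not computed, so whether the members' share is unusual is not known. mRpL41 shares 47 bases with CG11808, which lay at -0.29 on turned arrays, farther from 0 than mRpL41 at -0.15. mRpL9 shares 5 bases with Fkbp39, which lay at 0.27, whereas mRpL24 shares 50 bases with synr, at 0.01. The largest overlap of a named member was that of mRpL13, which shares all its 1221 bases with CG10602. These lay at 0.01 and 0.08 turned, and on opposite sides as deposited, at -0.17 for mRpL13 and 0.06 for CG10602. Where each probe lies in its gene was not analysed here, so the signals of overlapping genes cannot be separated.

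Other genes of mitochondrial gene expression had deposited medians at or above 0 in 4 of 5 lists. The exception was the list most like the members, the 3 mitochondrial ribosomal protein genes with other names. Its deposited median was -0.043, with 2 below 0, beside -0.058 for the members. In these 5 lists, 0 probes passed in limma in either reading (0% of all probes turned, 0.659% as deposited). The mitochondrial ribosomal protein genes with other names lay near 0 when turned, with tko, mutations of which make flies prone to seizures, at -0.01 ± 0.03, bonsai at 0.03 ± 0.06 and CRIF at 0.02 ± 0.02; as deposited they lay at 0.02, -0.04 and -0.16. The list of mitochondrial translation factors also held the mTERF proteins mTerf3, mTerf5 and mTTF. As mTTF is named for transcription termination, the list is wider than its name. Its 11 probes had a turned median of 0.026 (7 above 0) and a deposited median of 0.047 (3 below 0). Among them mTerf3, an mTERF protein that regulates mitochondrial translation, lay at -0.42 ± 0.30 turned (SD, n = 2; adjusted p = 0.298 in limma), led by 1 array at -0.74.

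The 13 mitochondrial aminoacyl-tRNA synthetase probes had medians of -0.007 turned and 0.070 deposited, with 3 below 0 as deposited. The 8 probes for the upkeep of mitochondrial DNA and RNA had medians of -0.042 and 0.074. Turned, 7 of them lay below 0. The exception was bsf, which binds mitochondrial messages, at 0.13 ± 0.09. Of 24 probes for mitochondrial import and chaperones 16 lay below 0 when turned, with a median of -0.016 against 0.007 as deposited. Tim8, a chaperone of the intermembrane space, lay at -0.29 ± 0.05 turned and Tim10 at 0.12 ± 0.01. The difference of these 4 lists from the members was not tested.

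Subunits of the respiratory chain and of the cytosolic ribosome were compared too. Respiratory complex I had a turned median of 0.044 over 35 probes and complexes II to V one of 0.050 over 44, and cytosolic ribosomal proteins 0.069 over 44, of which 37 lay above 0. The median of mitochondrial ribosomal proteins, at 0.025, was the lowest of these 4. As deposited the other 3 lay at 0.003, 0.010 and -0.007, against -0.058 for mitochondrial ribosomal proteins. None of these differences was tested. The cytosolic genes RpL36A and RpL23 had turned means of 0.37 ± 0.04 and 0.35 ± 0.01 (SD, n = 2), and the complex I gene ND-MNLL 0.34 ± 0.09, beside 0.34 ± 0.21 for mRpL49.

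**Figure D4:**
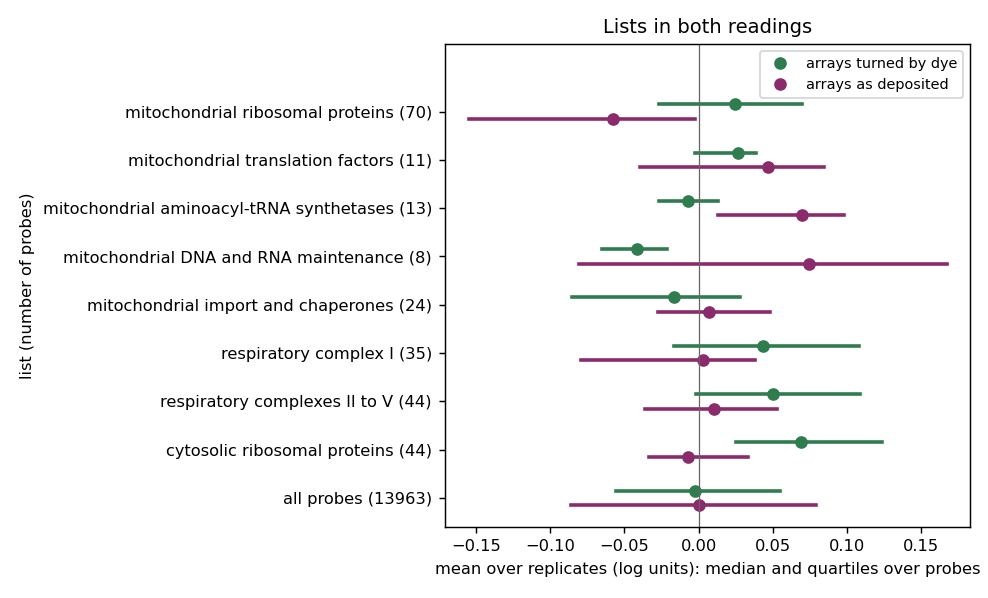
Median (point) and quartiles (bar) over probes of the mean over replicates (log units), with arrays turned by dye (green) and as deposited (purple). The number of probes of each list stands in brackets. Mitochondrial ribosomal protein genes with other names and the tissue markers are not drawn. The list of mitochondrial translation factors also holds mTERF proteins. Mitochondrial ribosomal proteins have the lowest deposited median of the lists drawn, -0.058, and a turned median of 0.025.

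Markers of other tissues in the front ends were read beside these values. Sarcomere probes (19) had a turned median of 0.035 and fat body probes (6) one of 0.007, eye disc probes (18) one of -0.057 and neuronal probes (13) one of -0.032. As deposited these medians lay between 0.005 and 0.039, on the other side of 0 from the members, and 1 probe of these lists passed, a neuronal one for brp, a protein of the presynaptic active zone, at 0.49 ± 0.14 (SD, n = 2; adjusted p = 0.0381 in limma), with other brp probes at 0.16 and 0.14; turned, none did. As ratios carry no level, they do not show whether a tissue was present, and the part of tissue make-up in the members' values was not tested.

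Over the 4 values of each member, the pattern that turns with the dye took 25.5% of the mean square and the pattern that stays as deposited 43.1%, against 22.6% and 40.2% over all probes. The difference between replicates took 24.3% and the interaction of replicate and dye 7.09%, against 24.9% and 12.3%. Of the members, 39 were above 0 turned and below 0 as deposited, 14 below 0 in both, 9 below 0 turned and above 0 as deposited, and 8 above 0 in both.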

How the data were processed

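The authors deposited log ratios, a unit other than counts or intensities, for 15744 probes on 4 arrays. Their log base, direction, background correction and normalization appear neither in the labels nor in the file. Of all cells 16 held -10000, taken as missing, and 350 to 956 per array were empty. No intensities were used, so how far a probe stood above background is not known, and the number of arrays limits the precision.

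Symbols came from the platform annotation through the gene identifier: 13147 probes had 1 symbol, 99 several and 2498 none here; 628 kept the annotation's symbol. Each array's median was subtracted. The series' design text calls the arrays numbered 1 a dye swap; those numbered 2 were taken as one too, and the labels do not say that the extracts were the same. Same-numbered arrays were averaged into 1 replicate, after turning where stated. Means of 2 replicates were tested against 0 over 13963 probes with lmFit and eBayes in limma 3.58.1 (R 4.3.3) and Benjamini-Hochberg adjustment at 0.05. On simulated data with 13963 probes, the turned comparison found 2 of the 100 probes shifted by 0.3 and 84 of the 100 shifted by 0.6, and made 2 false calls. The simulation drew 2 independent normal replicates per probe, with all unshifted probes centred on 0. It held no dye effect and no correlation between probes, so these rates need not hold for the real arrays.

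The members and lists were chosen with earlier results of these data known. Named members were the 12 farthest from 0 in each reading, those at least 0.1 from 0 in 1 direction on all arrays, and the highest and lowest of each subunit and number class; other lists gave up to 3 probes by the moderated statistic in either reading. CG11808, Fkbp39, synr, CG10602 and the paralogs of mRpS18C were picked with their values in view. The planned search of promoters for motifs was not run.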

Additional observations from a re-analysis of the deposited data

Results flagged for a closer look

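Once the arrays were turned, 14 members lay on opposite sides of 0 in the dye orientations, on both arrays of each; this difference between orientations was not tested. Each is given by its deposited mean, which is below 0 where the turned Cy3 arrays lay below 0 and the turned Cy5 arrays above it. These were mRpS18C at -0.23, mRpL21 and mRpL47 at -0.20, mRpL11 and mRpS5 at -0.18, mRpS25, mRpL55, mRpL1, mRpL17 and mRpS2 at -0.16, mRpS18B at -0.15, mRpL46 at -0.14 and mRpS26 at -0.10 log units. The reverse held for mRpL37, at 0.22. Over all probes, 10.6% and 11.4% had these arrangements.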

How the results depend on the processing

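With turned arrays, limma called 1 probe with the probes of a gene averaged and 1 with robust moderation, both times pen-2 and no member, and 447 with the replicate block as a random term, among them 1 member, mRpS17. With the replicate block as a fixed term it called 0, as it did with separate arrays and with each array left out. As deposited, it called 156 with probes averaged, and 0 with equal median absolute deviations of the arrays, with at least 1 array per replicate, with separate arrays and with the replicate block fixed or random, and between 0 and 167 with an array left out, 0 members each time. With a replicate or an array left out, the members' median ran from -0.03 to 0.0686 turned and from -0.0958 to -0.0203 as deposited, and members above 0 numbered 27 to 50 and 19 to 28. mRpL19 then ran from -0.0302 to 0.315, mRpL24 from -0.0213 to 0.314 and mRpS14 from -0.0208 to 0.296; without the Cy5 array of replicate 1 they changed sign. Counts of members above 0 under the alternatives were added after seeing the data. The causes were not tested.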
